A study of Caenorhabditis elegans with 2 samples.

Results

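The regions described here are candidate binding sites of UNC-62 whose summit lay inside protein-coding sequence and away from promoters, in L2 (second larval stage) worms of the species Caenorhabditis elegans. They were measured by chromatin immunoprecipitation followed by sequencing (ChIP-seq) and taken from the authors' pooled list of candidate peaks on build ce11. A candidate was kept when its summit lay in a coding segment (CDS) of a protein-coding gene and outside every promoter. A promoter ran from 1000 bp before the 5′ end of any protein-coding transcript to 200 bp after it. The rule kept 5012 of 28005 pooled candidates, which is 17.9% (exact Clopper-Pearson 95% interval 17.4 to 18.4%). The rule used position only, with no measured value. It fixes the host gene of each candidate and ties the candidates to coding sequence, so their sequence and hosts are set below against coding sequence as a whole.

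The series holds 1 group of 2 biological replicates, and no other condition. Both were whole L2 larvae of strain OP600, with males and females pooled and the age given as unknown. The strain has the unc119(ed3) allele and the integrated transgene wgIs600, which carries unc119 and a copy of unc-62 tagged with TY1, EGFP and FLAG. Both replicates therefore come from 1 transgenic line, with transgene copies of unc-62 and unc-119 sequence beside the chromosomal genes. The labels describe the target as the EGFP fusion but enter unc-62 under antibody, so the antibody cannot be named. The control library was not analysed here, and the labels name the same control experiment for both replicates.

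UNC-62 is the worm member of the MEIS and Homothorax family of homeodomain transcription factors, which bind DNA together with PBC partners such as CEH-20 and with Hox proteins. It acts in embryonic patterning, in larval development of the epidermis and nervous system, and in the adult intestine. Transcription factors are best known for acting at promoters and at enhancers in introns and between genes. Coding exons hold few known regulatory elements, though some exist. A candidate list of the kind used here is made to include background, because the irreproducible discovery rate (IDR) procedure that follows compares the ranks of peaks between replicates over strong and weak peaks alike.

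The sequences around the summits of some of the strongest coding exon candidates are printed below. Of these, 2 were picked for their GAGAGA, so the windows do not show how common a motif is in the class. Shown here are the 3 that the authors' IDR procedure kept in its optimal set (pks-1, F01F1.3 and tlp-1), the 3 next in signal (M163.1, Y102A11A.9 and T23G4.127) and 2 others of the 15 strongest that hold GAGAGA (F10C2.3 and clh-4). Each runs from 100 bp before to 100 bp after the summit on the coding strand of the host gene, from the RefSeq WBcel235 genome. Capitals mark matches on either strand to 3 motifs. These were TGACAG, the core that MEIS proteins prefer, TGATNNAT, a form of the joint PBC and Hox site, and GAGAGA, a repeat unit found at many worm regulatory regions.
pks-1: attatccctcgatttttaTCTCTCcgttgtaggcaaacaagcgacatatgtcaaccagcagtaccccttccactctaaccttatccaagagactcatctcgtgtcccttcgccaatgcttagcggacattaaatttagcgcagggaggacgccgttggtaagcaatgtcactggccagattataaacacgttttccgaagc
F01F1.3: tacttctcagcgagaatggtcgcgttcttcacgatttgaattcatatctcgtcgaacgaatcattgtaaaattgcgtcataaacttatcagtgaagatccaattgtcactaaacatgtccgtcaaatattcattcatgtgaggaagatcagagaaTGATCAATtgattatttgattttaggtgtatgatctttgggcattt
tlp-1: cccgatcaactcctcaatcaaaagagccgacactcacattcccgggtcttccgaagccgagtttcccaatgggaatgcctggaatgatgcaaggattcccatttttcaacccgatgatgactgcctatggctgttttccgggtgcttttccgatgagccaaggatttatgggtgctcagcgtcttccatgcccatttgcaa
M163.1: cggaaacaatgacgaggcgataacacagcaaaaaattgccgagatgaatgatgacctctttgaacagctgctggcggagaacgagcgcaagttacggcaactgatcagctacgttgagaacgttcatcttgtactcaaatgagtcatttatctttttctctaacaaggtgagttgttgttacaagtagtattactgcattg
Y102A11A.9: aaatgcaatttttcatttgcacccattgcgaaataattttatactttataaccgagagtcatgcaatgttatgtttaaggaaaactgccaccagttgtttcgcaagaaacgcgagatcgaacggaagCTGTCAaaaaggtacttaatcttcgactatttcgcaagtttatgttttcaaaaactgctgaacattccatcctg
T23G4.127: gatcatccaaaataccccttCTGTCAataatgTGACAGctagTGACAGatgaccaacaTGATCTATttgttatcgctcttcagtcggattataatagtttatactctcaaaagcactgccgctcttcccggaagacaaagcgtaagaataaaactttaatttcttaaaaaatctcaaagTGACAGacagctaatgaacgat
F10C2.3: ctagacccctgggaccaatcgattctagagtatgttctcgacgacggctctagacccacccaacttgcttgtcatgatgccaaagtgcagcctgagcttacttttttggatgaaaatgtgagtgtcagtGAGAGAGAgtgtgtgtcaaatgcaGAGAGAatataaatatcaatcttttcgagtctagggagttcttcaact
clh-4: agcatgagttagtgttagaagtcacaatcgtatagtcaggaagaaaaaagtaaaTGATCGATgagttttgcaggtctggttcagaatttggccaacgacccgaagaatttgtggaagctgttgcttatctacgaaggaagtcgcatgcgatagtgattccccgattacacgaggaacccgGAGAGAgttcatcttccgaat

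The pks-1 window lies at chrX:5429453-5429653 on the plus strand and holds a GAGAGA match on the opposite strand. The F01F1.3 window, chrIII:5874264-5874464 on the plus strand, holds a TGATNNAT match. The tlp-1 window, chrIV:13702766-13702966 on the minus strand, is coding throughout and holds none of the 3 motifs. Nor does the M163.1 window, chrX:14503316-14503516 on the minus strand. The Y102A11A.9 window, chrX:2014025-2014225 on the plus strand, has 59 coding bases of 201 and a TGACAG match. The T23G4.127 window, chrIV:13696077-13696277 on the minus strand, holds 4 TGACAG matches and a TGATNNAT match, with 108 of its 201 bases coding. The F10C2.3 window, chrV:12021447-12021647 on the plus strand, holds GAGAGA, and the clh-4 window, chrX:4094914-4095114 on the minus strand, holds GAGAGA and TGATNNAT. A match describes the letters in these windows and does not show that a protein is bound to them.

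Coding exon candidates were nearly missing from the optimal IDR set, whose members are called reproducible peaks here. Of the 5012, 3 were in the optimal IDR set (0.0599%, 95% interval 0.0123 to 0.175%), against 1.48% of all pooled candidates. Introns outside promoters had 64 of 7208 in the set (0.888%, interval 0.684 to 1.13%), and promoters had 215 of 8077 (2.66%, interval 2.32 to 3.04%). Coding exons thus made up 0.725% of the 414 reproducible peaks (interval 0.150 to 2.10%) and 17.9% of the candidates. No overlap exists between the intervals of the coding share in the set and in the list. These intervals cover counting error only, and candidates of 1 experiment are not replicates.

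The strongest of the 3 lay in pks-1, a polyketide synthase gene whose product helps to make the nemamide lipopeptides of the worm. Its peak, chrX:5429385-5429720, had a signal value of 61.3, where the signal is the authors' own enrichment value and has a scale that differs between lists. It ranked 62 in the pooled list, 69 in replicate 1 and 95 in replicate 2, and both replicate summits were within 5 bp of the pooled one. The summit was in coding exon 22 of 30, a 202 bp exon, 15203 bp from the nearest protein-coding 5′ end. This was the coding candidate with the highest rank in all 3 lists.

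The second, chrIII:5874196-5874531, lay in coding exon 5 of 6 of F01F1.3, which RefSeq annotates as a protein with an MIF4G domain. Its signal was 33.7, with ranks of 274 in the pooled list, 320 in replicate 1 and 299 in replicate 2. The replicate 1 summit was 2 bp away and the replicate 2 summit 159 bp away. It too ranked high in both replicates, though the summits did not coincide.

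The third, chrIV:13702698-13703033, lay in coding exon 2 of 4 of tlp-1, a zinc finger gene needed for the asymmetric T cell division and for shaping the male tail tip. Its signal was 28.4, and it ranked 407 in the pooled list, 221 in replicate 1 and 8758 in replicate 2. The whole peak was coding sequence, its summit was 1216 bp downstream of the tlp-1 5′ end, and another reproducible summit was 1344 bp away. In replicate 2 the candidate with the nearest summit, 3 bp away, ranked 27836. Of the 3, this one was strong in replicate 1 alone.

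The lowest signal inside the optimal set was 28.25 and the highest outside it 28.23, so membership of the set followed the pooled signal. The coding share of the set and the coding shares by pooled signal given below are therefore not separate results. Just outside came M163.1, an uncharacterized gene with 1 coding exon, at 26.6, with ranks of 1288 and 486 in replicates 1 and 2. Y102A11A.9, annotated with a Lebercilin domain, followed at 26.2, with ranks of 325 and 5932. T23G4.127 had a signal of 25.2 and overlapped replicate candidates at ranks 12 and 22. Its summit was 249 bp from a reproducible summit, and the replicate 2 summit was 280 bp away from its own. In replicate 1 another candidate, at rank 218, had its summit 7 bp away.

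**Figure D1:**
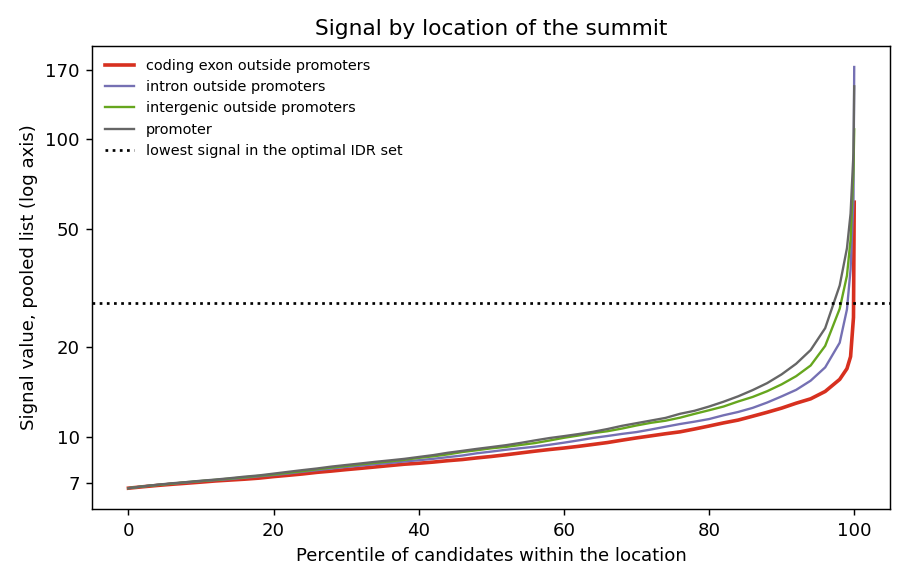
Signal value in the pooled list (log axis) at each percentile of the candidates of a location, one line per location of the summit; the dotted line is the lowest signal in the optimal IDR set, 28.25. The coding exon line runs lowest, and it crosses the dotted line only above its 99th percentile, where the signal is 16.96.

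Coding exon candidates had lower signal than the other locations, mainly at the high end. Their signal had a median of 8.61, with a 90th percentile of 12.5 and a 99th percentile of 16.96. Over all candidates the median was 9.02, the 90th percentile 14.3 and the 99th percentile 33.4. The low ends were nearly the same and the high ends differed. The 99th percentile was 26.8 in introns, 34.8 between genes and 42.97 in promoters. With rank 1 the strongest, the median coding candidate stood at 56.3% of the way down the pooled list, at 54.97% in replicate 1 and at 53.3% in replicate 2.

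The share of coding exons rose steadily with falling rank. Among pooled ranks 1 to 500 it was 1.00%, or 5 candidates (interval 0.325 to 2.32%), and from rank 500 to 2000 it was 6.07% (interval 4.91 to 7.40%). It was 15.9% from 2000 to 5000 and 16.7% from 5000 to 10000. Beyond that it was 19.7% and then 20.5%, near the 18.96% of the genome that such sequence covers. In replicate 1 the 6 shares ran from 2.00% through 8.93, 15.8, 17.96 and 18.6% to 20.1%. In replicate 2 they ran from 4.20% through 13, 17.03, 18.7 and 19.6% to 20.2%. All 3 lists had the lowest share at the top, and replicate 2 had a higher share there than the others. In all, 96 coding candidates (1.92%) were among the 2000 strongest, against 7.14% of all candidates.

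**Figure D2:**
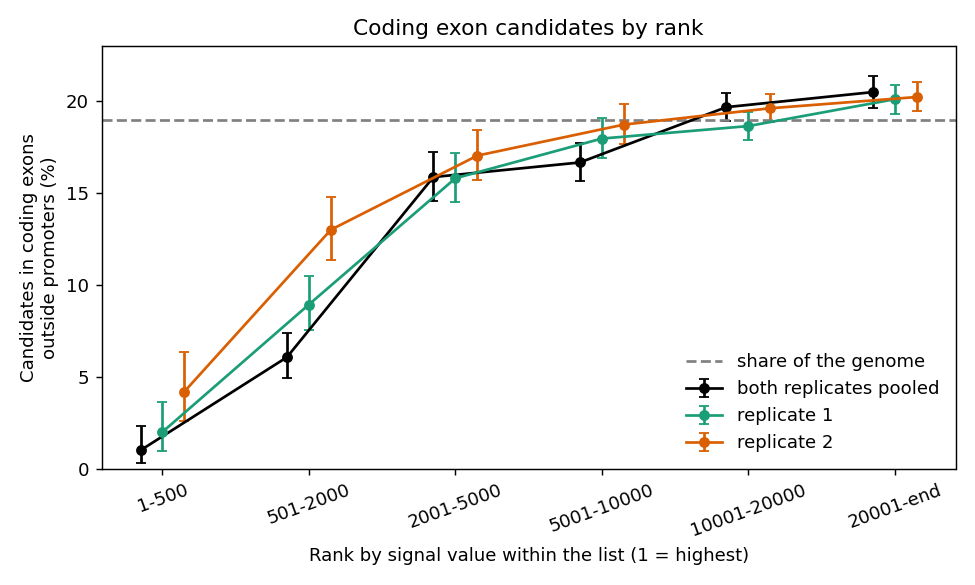
Percent of candidates with the summit in a coding exon outside promoters, by rank of signal within each list, with exact 95% intervals as bars; the dashed line is the 18.96% of the genome in such sequence. The share climbs from 1.00 to 20.5% in the pooled list, from 2.00 to 20.1% in replicate 1 and from 4.20 to 20.2% in replicate 2.

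A smaller share of coding exon candidates than of all candidates was found in both replicates. A pooled candidate counted as supported by a replicate when a candidate of that replicate overlapped it by at least 1 bp. Replicate 1 supported 3133 of the 5012 (62.5%, against 67.4% of all candidates) and replicate 2 supported 2574 (51.4%, against 53.7%). Both supported 1276 (25.5%, interval 24.3 to 26.7%), against 30.9% of all candidates. A further 1857 had support from replicate 1 alone, 1298 from replicate 2 alone, and 581 (11.6%) from neither. Evenly tiled coding windows of the same 336 bp width overlapped candidates of both replicates in 4.80% of cases. That value is a description of how densely the lists cover coding sequence, and the pooled list was made from the reads of both replicates.

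Within a class of pooled rank the shares lay closer together. From rank 500 to 2000, both replicates supported 75.8% of coding candidates and 80.6% of the others. From 2000 to 5000 the shares were 57.6% and 60.5%, and from 5000 to 10000 they were 40.6% and 39.96%. From 10000 to 20000 they were 21.7% and 21.8%, and in the last class 10% and 12.62%. Support from both replicates requires overlap only: in 582 of the 1276 (45.6%) both replicate summits were within 100 bp of the pooled summit. That is 11.6% of all coding candidates, against 15.8% of all candidates. Another pooled candidate overlapped 339 of the 5012 (6.76%), and how much support came from a neighbour was not tested.

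The replicate lists can also be set against each other without the pooled list. Replicate 1 had 144 coding candidates among its 2000 strongest, and 10 of them (6.94%, interval 3.38 to 12.4%) overlapped one of the 2000 strongest of replicate 2. Of all 2000 the share was 28.8%, and of intron candidates 24.0% (interval 19.9 to 28.5%). In the other direction 9 of 216 coding candidates (4.17%, interval 1.92 to 7.76%) were shared, against 29.0% of all and 23.2% of intron candidates. For these 2000, the coding intervals lay below the intron intervals in both directions. Among the 500 strongest, 4 of 10 coding candidates of replicate 1 (40%, interval 12.2 to 73.8%) were shared, against 44.7% of intron candidates, and 2 of 21 of replicate 2 (9.52%, interval 1.17 to 30.4%), against 46.4%. Among the 10000 strongest the coding shares were 10.6% and 8.30%, against 20.97% and 21.2% of all. Coding candidates also sat lower within each such list, as the shares by rank show, and the part of rank in these differences was not tested.

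Coding candidates were found anywhere in the other replicate's list more often than tiled coding windows were. Of the 1516 among the 10000 strongest of replicate 1, 475 (31.3%) overlapped any candidate of replicate 2. Tiled coding windows of the 350 bp replicate 1 width did so in 19.9% of cases. Of the 1663 in replicate 2, 469 (28.2%) overlapped any candidate of replicate 1, against 19.2% of tiled windows of the 364 bp replicate 2 width. Over all locations the shares were 39.8% and 39.5%.

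**Figure D3:**
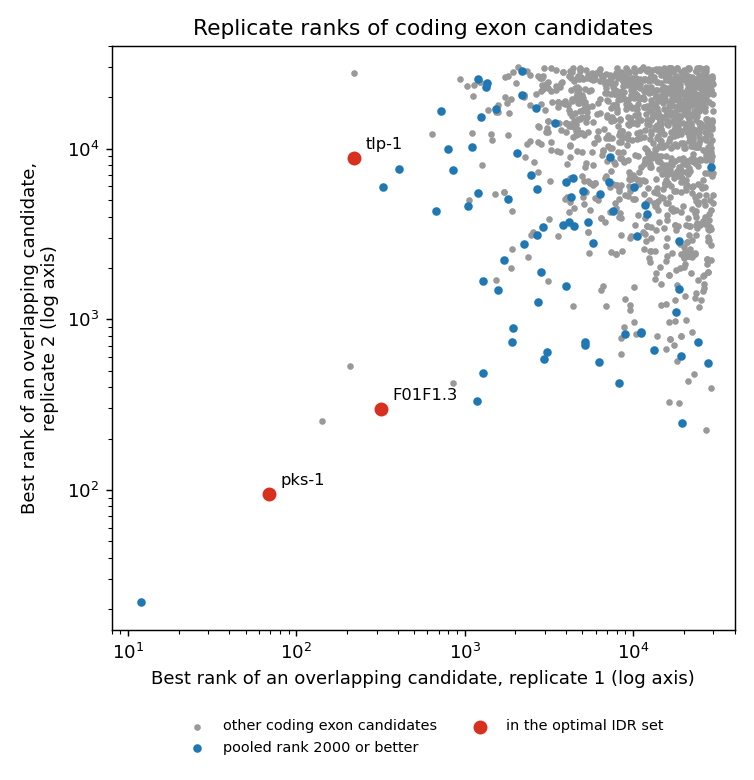
Best rank of an overlapping candidate in replicate 1 and in replicate 2 (log axes) for the 1276 coding exon candidates supported by both; red points are in the optimal IDR set, blue points are other candidates with a pooled rank of 2000 or better. Most points fill the upper right corner, and pks-1 and F01F1.3 are the 2 reproducible ones near the lower left; the point at ranks 12 and 22 is T23G4.127.

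The rank given for a replicate is that of its best overlapping candidate, and in 82 of the 1276 another candidate had the nearest summit in at least 1 replicate. Across the 1276, the ranks in the 2 replicates showed no common order. Spearman's rho was -0.02, against 0.24 over the 8642 candidates of all locations with support from both. This is a description over candidates, which share libraries and depth and come from a list made from the reads of both replicates. The effect of that choice on rho was not tested. The coding candidates with both replicate ranks at 2000 or better numbered 14 of 631 such candidates (2.22%). Beside pks-1, F01F1.3, T23G4.127, M163.1 and clh-4, the 10 with the best weaker rank included C08D8.1, C25A6.1, ncx-7, dos-3 and F14D12.1. C08D8.1, annotated as an UNC93-like protein, had ranks of 142 and 253, but it lay 237 bp from a reproducible summit and beside the snoRNA gene C08D8.3. Its nearest replicate 1 summit, 81 bp away, belonged to a candidate at rank 29706. C25A6.1, a predicted serine/threonine phosphatase gene, had ranks of 209 and 535 and lay 200 bp from a reproducible summit, and the replicate 1 candidate at its own summit ranked 19617. The sodium/calcium exchanger gene ncx-7 had ranks of 852 and 422, with the replicate 2 summit 204 bp away, a nearest replicate 1 summit at rank 9810 and the snoRNA gene C07A9.14 nearby. dos-3, which encodes a Delta and OSM-11-like protein, had ranks of 1566 and 1477 with both summits within 77 bp. F14D12.1, with a PH domain, had ranks of 1279 and 1671 with both within 23 bp. Neither dos-3 nor F14D12.1 had a reproducible summit within 1000 bp.

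The rest of the 15 strongest coding candidates lay on several chromosomes and mostly ranked far apart in the 2 replicates. ZK945.4, a putative RING finger gene, had a signal of 22.8 and ranks of 1192 and 5482. acy-4, an adenylyl cyclase gene, had 22.3 and ranks of 672 and 4326. acp-4, of the acid phosphatase family, had 21.6 and ranks of 1706 and 2221, which are close to each other, with both summits within 2 bp of the pooled one. F10C2.3, annotated with a sulfatase domain, had 20.6 and ranks of 1050 and 4586. The chloride channel gene clh-4 had 20.4 and ranks of 1189 and 332, and the neuropeptide gene flp-5 had 19.3 and ranks of 2715 and 1260. Y71G12B.31 had 22.9 and ranks of 2970 and 585. Support from replicate 2 was missing for eri-6, a gene of the endogenous RNA interference pathway, which had 20.4, a rank of 700 in replicate 1 and no overlapping candidate in replicate 2. Support from replicate 1 was missing for srt-4, a serpentine receptor gene, which had 20.4, no overlapping candidate in replicate 1 and a rank of 649 in replicate 2.

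Within genes the candidates lay much as coding sequence does. First coding exons held 172 (3.43%, interval 2.95 to 3.97%), where they are 3.03% of coding bases outside promoters. Internal exons held 4101 (81.8%, against 82.1% of bases), last exons 718 (14.3% against 14.3%), and single coding exons 21 (0.419% against 0.518%). Exons over 500 bp long held 24.4% (interval 23.2 to 25.6%) and have 25.9% of the bases. Those over 1000 bp held 7.18% (interval 6.48 to 7.93%) and have 8.50%. In long exons, at both lengths, the share of candidates was below the share of bases by more than its interval. In first, internal, last and single exons the interval covered the share of bases.

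A coding summit does not mean a coding peak. The median candidate had 74.7% of its 336 bp in CDS, and 868 (17.3%) were coding from end to end. The median distance from summit to the nearer exon edge was 57 bp in exons of a median 263 bp, so most peaks took in intron sequence. The nearest protein-coding 5′ end was a median 1410 bp away, and within 2000 bp in 67.0%. In 233 (4.65%) the summit was also in an intron of another transcript, and in 85 (1.70%) in an annotated UTR. A small RNA gene lay within 500 bp of 63, namely a tRNA gene for 30, a snoRNA gene for 24, an snRNA gene for 5 and a miRNA gene for 4. The 96 strongest candidates looked alike in this, with a median of 71.4% of the peak in CDS and 13 coding from end to end (13.5%).

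By chromosome, the X stood above its share of coding sequence. It held 911 candidates (18.2%, interval 17.1 to 19.3%) and has 15.7% of the coding bases outside promoters. The same share was 17.3% in replicate 1 and 18.3% in replicate 2, and 21.05% of all pooled candidates were on the X. Chromosome IV stood below, with 14.3% (interval 13.4 to 15.3%) against 15.6% of bases, and with 15.6% and 14.9% in the replicates. The intervals of the other 4 chromosomes covered their share of bases.

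The base composition and motifs of the candidates were those of coding sequence. GC content within 100 bp of the summit had a median of 39.8%, the same as in 380209 coding windows tiled every 50 bp. It was 36.3% over all candidates and 34.3% in introns. TGACAG was present in 385 (7.68%, interval 6.96 to 8.45%), against 8.18% of tiled coding windows and 7.97% of all candidates. TGATNNAT was present in 911 (18.2%, interval 17.1 to 19.3%), against 18.1% of tiled windows and 16.9% of all candidates. The longer form TGATTGAT, which is one of the TGATNNAT words, was present in 92 (1.84%), against 1.75% of tiled windows. None of these shares of the homeodomain motifs differed from tiled coding sequence by more than its interval.

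GAGAGA was present in 542 coding candidates (10.8%, interval 9.97 to 11.7%), against 10.1% of tiled coding windows and 14.6% of all candidates. It was on the coding strand alone in 307, on the other strand alone in 227 and on both in 8. In the pooled list the share was higher among the strongest: 20 of the 96 with a pooled rank of 2000 or better held it (20.8%, interval 13.2 to 30.3%). From rank 500 to 2000 it was 20.9% of coding candidates and 33.4% of the others. From 2000 to 5000 the shares were 13.7% and 19.1%, and from 5000 to 10000 they were 8.16% and 15.6%. Below that they were 11.1% and 12.4%, then 10.4% and 11.1%. In the replicate lists this rise differed by class of rank. At their own ranks 1 to 500 the coding shares were 10% in replicate 1 (1 of 10, interval 0.253 to 44.5%). In replicate 2 that class had 38.1% (8 of 21, interval 18.1 to 61.6%, above the share of tiled windows). At their own ranks 500 to 2000 the coding shares were 17.9% in replicate 1 (interval 11.8 to 25.5%) and 13.8% in replicate 2 (interval 9.33 to 19.5%, which covers the share of tiled windows). From 2000 to 5000 they were 8.44% and 9.59%, below that of tiled windows. Among the 2000 strongest pooled candidates, GAGAGA was in 34.7% of intron candidates (interval 30.02 to 39.5%), 37.2% of promoter candidates and 22.9% of UTR candidates (11 of 48, interval 12.03 to 37.3%). TGACAG was in 10 of the 96 (10.4%).

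**Figure D4:**
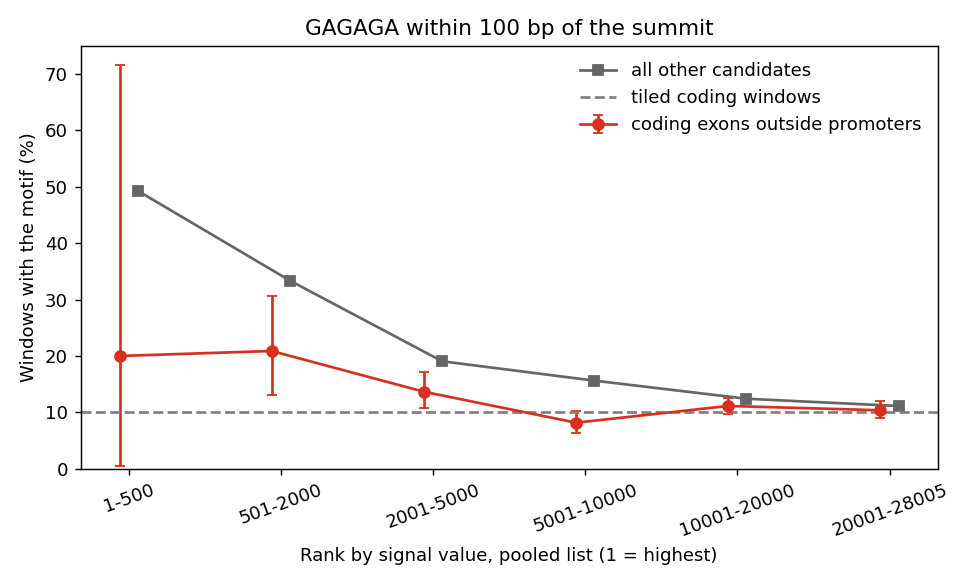
Percent of 201 bp windows around the summit that hold GAGAGA on either strand, by pooled rank, for coding exon candidates (red, exact 95% intervals) and all other candidates (grey); the dashed line is the 10.1% of tiled coding windows. In this pooled list coding candidates stand above that line from rank 500 to 2000 (20.9%) and from 2000 to 5000 (13.7%) and close to it below, whereas from 2000 to 5000 the replicate lists gave 8.44% and 9.59%; the first class holds 5 coding candidates and has an interval from 0.505 to 71.6%.

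The candidates were spread thinly over many genes. They fell in 4052 of the 18240 protein-coding genes with coding sequence outside promoters (22.2%). Of these genes 3328 had 1 candidate, 570 had 2 and 154 had 3 or more. The density was 0.264 candidates per kb of coding sequence outside promoters in the pooled list, 0.284 in replicate 1 and 0.297 in replicate 2. Whether a gene had one followed its length: 4.55% of genes with up to 300 bp, 16.24% with 300 to 1000 bp, 31.3% with 1000 to 2000 bp, 54.3% with 2000 to 5000 bp and 82.2% of longer genes. Per kb the same classes had 0.276, 0.265, 0.267, 0.265 and 0.242 candidates. Genes with a candidate had a median of 1265 bp of such sequence and the others 678 bp. Of the host genes 1371 (33.8%) also hosted a coding candidate in each replicate list. Of all 18240 genes, 23.6% hosted one in the replicate 1 list, 24.2% in the replicate 2 list, and 1763 genes in both. The 1763 were 41.0% of the 4298 hosts in replicate 1 and 39.9% of the 4418 in replicate 2. The part of gene length in this overlap was not tested.

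**Figure D5:**
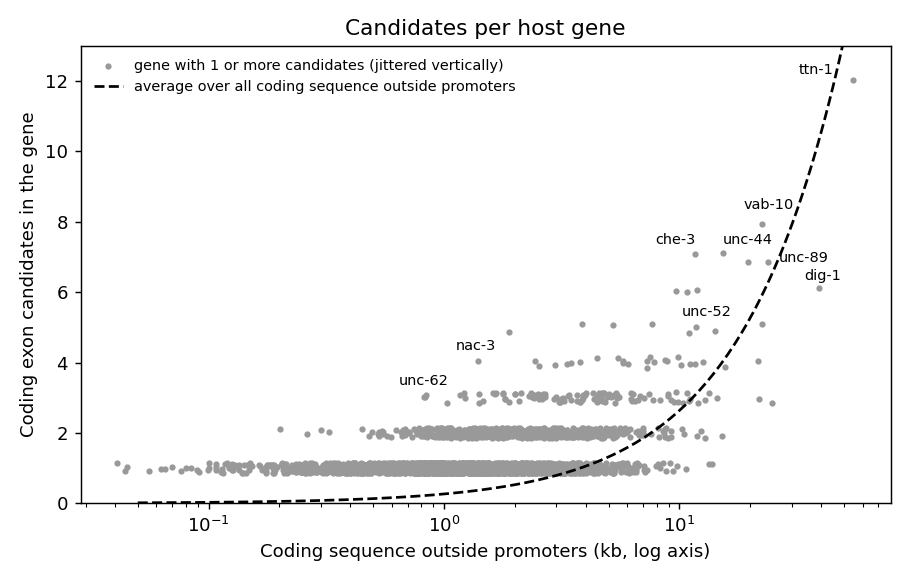
Number of coding exon candidates against coding sequence outside promoters (kb, log axis) for the 4052 host genes, with points shifted slightly up or down to separate them; the dashed curve is the average density of 0.264 per kb. The genes with the most candidates are long ones on either side of the curve, from dig-1 at 0.153 per kb to T01D3.1 at 0.623 per kb, while unc-62 has 3 in under 1 kb.

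The genes with the most candidates encode the giant proteins of the worm. ttn-1, which encodes titin of muscle, had 12 in 54582 bp (0.220 per kb), with 9 in replicate 1 and 7 in replicate 2. vab-10, a spectraplakin that links epidermis to cuticle, had 8 (0.358 per kb). The dynein heavy chain gene of cilia che-3 (0.600 per kb), F39C12.1 (0.458), the ankyrin gene unc-44 (0.356) and the obscurin gene unc-89 (0.294) had 7 each. T01D3.1, with EGF-like domains, B0207.5, with a lectin domain, the perlecan gene unc-52 and the matrix protein gene dig-1 had 6 each. Their densities were 0.623 per kb in T01D3.1, 0.556 in B0207.5, 0.507 in unc-52 and 0.153 in dig-1, against 0.264 over all genes. The highest signal in any of these 10 genes was 14.98, in T01D3.1.

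Per kb, among genes with at least 3 candidates, the highest was unc-62 itself, at 3.65 per kb from 3 candidates in 822 bp. The next were the receptor genes srz-95 (3.60) and str-86 (3.58), W10C4.1 (2.91) and nac-3 (2.87), the last a gene of the sodium-coupled carboxylate transporter family. In srz-95, str-86 and W10C4.1, each replicate list held 1 coding candidate. In unc-62 and in nac-3, replicate 1 held 2 and replicate 2 held 1. The unc-62 candidates had signals of 12.8, 9.35 and 6.92. In that order, 43.5, 28.9 and 27.4% of the peak was CDS, against a median of 74.7% over all coding candidates. The first, chrV:4504829-4505164, had no overlapping candidate in replicate 1 and one at rank 851 in replicate 2, and its summit was 237 bp downstream of a 5′ end. The second, chrV:4510716-4511051, had ranks of 15671 and 665. The third, chrV:4505702-4506037, had ranks of 1535 and 1705. Within 20000 bp of unc-62 there were 46 pooled candidates in all. The tagged transgene carries unc-62 sequence, and its part in these values was not tested. unc-119, whose sequence is also in the transgene, had no coding candidate in its 466 bp, with 15 candidates in the window around it.

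Gene groups were described by how many genes hosted a candidate, to be read against 22.2% of all genes. They were also described by candidates per kb, to be read against 0.264 in the pooled list. Densities in replicates 1 and 2 are to be read against 0.284 and 0.297. Among the 11 MEIS, PBC and Hox genes, which encode UNC-62 and its partners, unc-62 and ceh-60 hosted candidates. The group had 0.593 per kb, from 4 candidates, of which 3 were in unc-62, and 0.445 and 0.296 in the replicates. The ceh-60 candidate had a signal of 8.61, a rank of 7437 in replicate 1 and none in replicate 2. ceh-20, ceh-40 and the Hox genes lin-39, mab-5 and egl-5 hosted none. Of 10 heterochronic genes, which time larval development, 3 hosted one. These were lin-42, the worm period homologue, at 16.98 with ranks of 18770 and 1506, lin-14 at 14.5 with a rank of 1798 in replicate 1 alone, and lin-46 at 11.4 with ranks of 12581 and 7772. Of 23 Wnt pathway genes 9 hosted one, at 0.247 per kb, with the kinase gene gsk-3 at 12.03 and the Dishevelled genes dsh-2 at 11.6 and mig-5 at 10.8.

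In the pooled list the 3 densest groups were small ones: chaperones, then the MEIS, PBC and Hox group above, then epidermis. Of 13 chaperone genes 7 hosted 11 candidates, at 0.728 per kb in the pooled list, 0.728 in replicate 1 and 0.397 in replicate 2. They included hsp-1, the constitutive Hsp70 of the cytosol, at 13.3, the heat-inducible hsp-70 at 13.2 and hsp-4, the BiP of the endoplasmic reticulum, at 13.03. Of 25 epidermis genes 14 hosted 18, at 0.576 per kb, with 0.576 in replicate 1 and 0.352 in replicate 2. Among these, nhr-23, a nuclear receptor that drives moulting, had 17.4 and ranks of 3416 and 14214. The GATA factor gene elt-3 had 14.3 and ranks of 2443 and 11045, and lin-26, which specifies epidermal fate, had 13.1 and ranks of 13692 and 17210. In chaperones and epidermis the density in replicate 2 was nearer to the average than that in replicate 1. Other tissue groups were not dense in the pooled list. Intestine genes hosted one in 5 of 19 (0.223 per kb) and neuron genes in 11 of 28 (0.239). Pharynx genes hosted one in 4 of 8 (0.243) and body wall muscle genes in 9 of 19 (0.262). In replicates 1 and 2 the densities were 0.312 and 0.223 for intestine, and 0.284 and 0.463 for neurons. They were 0.340 and 0.389 for pharynx, and 0.304 and 0.269 for body wall muscle. In replicate 2, neuron and pharynx genes were thus denser than epidermis genes, and neuron genes denser than chaperones.

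Genes of protein synthesis and of other functions that every cell uses ranged widely. Ribosomal protein genes hosted one in 3 of 41, at 0.277 per kb, namely rps-1 at 16.6, rpl-11.2 at 9.56 and rps-15 at 8.46. Translation factor genes hosted one in 2 of 14 (0.131 per kb), aminoacyl-tRNA synthetase genes in 12 of 31 (0.343) and vacuolar ATPase genes in 5 of 16 (0.281). Actin and tubulin genes hosted one in 5 of 21 (0.240). None of 14 histone genes hosted one, with an exact upper limit of 23.2%, though 2 did in replicate 1. Vitellogenin genes, which encode yolk proteins of the adult, hosted one in 1 of 6, in vit-6 (0.0357 per kb), and germ line genes in 4 of 18 (0.167).

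Per kb the large families lay near the average, while by share of genes collagens and serpentine receptors were below 22.2%. Collagen genes, taken by the name col, hosted one in 21 of 152 (13.8%, interval 8.76 to 20.3%), with col-99 the strongest at 13.7. Their density was 0.202 per kb, with 0.211 and 0.165 in the replicates. Nuclear hormone receptor genes hosted one in 70 of 267, at 0.315 per kb, with 0.323 and 0.255 in the replicates. Serpentine receptor genes, which encode chemosensory receptors of neurons, were taken by names that start with sr. That rule leaves out the str genes, and the product of each gene was not checked. The genes so named hosted one in 193 of 1154 (16.7%, interval 14.6 to 19.01%), at 0.255 per kb, with 0.242 and 0.289 in the replicates. Basement membrane and spectrin genes hosted 38 in 12 of 16, and body wall muscle genes hosted 37 in 9 of 19, yet per kb both were at the average, with 0.258 and 0.262. Genes of transcription and splicing hosted one in 11 of 22, at 0.241 per kb. No group was tested against the others.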

How the data were processed

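Candidates came from the authors' deposited peak lists on build ce11: 1 pooled list, 1 per replicate with 30000 candidates each, and the optimal IDR set. The signal of each peak is the authors' deposited value relative to a control, used only for ranks within a list. The deposited −log10 q value was tied at its top for 635 pooled candidates, 6 of them coding, and gave no order. The sources used here do not name the aligner, the peak caller or the IDR threshold, and read depth is unknown. The library size range was 150 to 350 bp, per the labels.

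Summits were placed on the Ensembl release 115 annotation of WBcel235, the same assembly; all 4 lists fitted its chromosome lengths. Sequence was read from the RefSeq copy, and product names from RefSeq. Coordinates count from 1. Python 3.11.15, pandas 2.3.3, numpy 2.4.6 and scipy 1.17.1 were used, and the location step was tested on simulated data. Shares have exact 95% intervals for counting error only. No test was run: the design has 1 group of 2 replicates, and candidates are not replicates. Named genes are the candidates in the optimal set and next to it, the 15 strongest, the 10 with the best weaker replicate rank, the 10 genes with most candidates and 5 with most per kb, up to 3 of each of 22 gene lists, and the transgene loci. The regions and lists were chosen with earlier results of these data known.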

Additional observations from a re-analysis of the deposited data

How the results depend on the processing

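Of 96 alternative values for 9 results under 14 settings, 68 stayed within the counting interval or replicate spread of the value, or for host genes within 1.5 times the count, and 28 moved. The share of candidates in coding exons outside promoters was 12.63% with promoters from 2000 bp upstream to 500 bp downstream, 20.6% with 500 to 100 bp, 9.97% with 50 bp on each side of the summit required in CDS, 15.4% in the upper 50% of the list by signal, and 17.97 to 18.82% in single replicate lists. Support by both replicates was 41.2% in the upper 50%, 16.9% with overlap of at least 50% of each peak (22.1% of all candidates) and 11.6% with summits within 100 bp. The share among the 2000 strongest was 4.47% in the upper 50% and 2.67 to 3.83% in single lists. The median rank was 57.5% with CDS on each side, 29.0% in the upper 50% and 53.28 to 54.97% in single lists. Median GC was 39.3% with 500 to 100 bp promoters, 41.8% with CDS on each side, 39.3% in the upper 50%, 40.6% within 50 bp, 38.7% within 200 bp and 39.3 to 39.8% in single lists. GAGAGA was in 12.4% with CDS on each side, 5.83% within 50 bp and 19.6% within 200 bp, and TGACAG in 3.75% and 14.9% within those windows. Host genes numbered 2823 with the wider promoters, 4642 with the narrower, 2357 with CDS on each side and 1962 in the upper 50%. Optimal set membership was 2 or 3 candidates in every pooled setting; in single lists, where overlap with an optimal peak was counted instead, it was 6 of 5390 (0.111%) without replicate 2 and 3 of 5646 (0.0531%) without replicate 1. Wider windows hold more motifs by construction. Wider promoters, or CDS required on each side, can only remove coding candidates and host genes, and narrower promoters can only add them. Keeping the upper 50% also moves several values by construction. The same 96 coding candidates among the 2000 strongest are divided by 2150 instead of 5012, and no rank can lie beyond 50%. The number of host genes is limited by the 2150 candidates that remain. The cause of the other shifts was not tested. No paired analysis was possible because there is 1 group of 2 replicates and no second group. Without read counts, the error from depth could not be estimated for any value.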
